A study of Mus musculus with 49 samples.

Results

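Solute carriers are the membrane proteins that move amino acids, sugars, nucleosides, vitamins, ions and metabolites across the plasma membrane and the membranes of organelles, and each is named Slc with a family and a member number. Their transcripts were followed in mouse immature B cells in which signalling from the surface IgM receptor had been interrupted. A gene was taken when its symbol begins Slc and a digit, when a probe set of the Affymetrix U74Av2 array matched that gene alone, and when the mean signal of that probe set reached 500 units in 1 or more of 10 sample groups. Of 138 Slc genes with such a probe set, 76 met the rule and 62 did not, and where several probe sets of a gene qualified (5 genes) the one with the highest mean was used. The members were thus chosen by their measured signals, so the level of each carrier is a description, and a gene that reached 500 units only in the group where it was high had to differ between groups. The count of called carriers in each comparison is therefore first given beside the shares of all 138 Slc genes and of all probe sets.

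The study compared immature B cells that had lost their receptor, or whose kinases were inhibited, with receptor-bearing and earlier cells. Cre-Mlo and Cre-Mhi were IgM-low and IgM-high cells of B1-8h/3-83kappa/Mx-Cre mice, and Ctrl-Mhi were IgM-high cells of B1-8h/3-83kappa mice without Mx-Cre (4 arrays each). In all 3 groups marrow was first expanded with IL-7, and the cells were then held for 2 d without IL-7 but with interferon alpha-beta, which switches on Cre from the Mx promoter. B6-Mneg were B220-positive, IgM-negative cells of C57BL/6 marrow expanded in IL-7 (3 arrays). They differed from Ctrl-Mhi cells in strain, transgenes, reculture and sort at once, and these cannot be told apart. FxD and FxE were fresh Balb/c pre-B cells (B220+ CD43- IgM-) and immature B cells (B220+ IgM+ IgD-), 3 arrays each, whose RNA was amplified in 2 rounds. GFPpos cells came from marrow of anti-HEL Ig/Rag-2-GFP mice, in which GFP is driven by Rag2 regulatory elements. After IL-7 expansion they spent 1 d with the tyrosine kinase inhibitor herbimycin A and were sorted as IgM+ GFP+, whereas GFPneg cells spent that day in medium and were sorted as IgM+ GFP- (3 arrays each), so drug and sort cannot be told apart. FxE HA (6 arrays) and FxE Ctrl (4 arrays) were immature B cells of mice whose Bcl-2 transgene is expressed in B cells, cultured with herbimycin A or in medium for 24 or 48 h. HEL 48h cells (3 U74A arrays) were Rag2-GFP HEL-Ig cells held for 48 h with 1 µg/ml hen egg lysozyme after 5 d in IL-7 and sorted as IgM high and GFP+, and BM 48h Ctrl cells (3 U74A arrays) had no antigen. The knock-in alleles were single copy, and the methods give ages of a few weeks for the mice in general.

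Cells take up essential amino acids largely through heteromeric carriers, in which the heavy chain Slc3a2 (CD98) holds a light chain such as Slc7a5 or Slc7a7 at the surface, while the Slc2 family carries glucose. The Slc12 family couples chloride to sodium or potassium and sets cell volume and intracellular chloride, and the Slc25 family mostly serves the inner mitochondrial membrane. Developing B cells alternate between dividing pre-B stages with a large demand for nutrients and resting stages with a small one, and signals through the IL-7 receptor, the pre-B receptor and phosphatidylinositol 3-kinase are known to act on carriers of glucose and amino acids.

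Slc12a7, Slc7a7 and Slc12a3 were each called higher in 2 or 3 of the 4 comparisons that share no array. The share of all probe sets called that often was not worked out, so the count only serves to pick them. For each, 300 bases around 1 annotated start are shown (RefSeq, GRCm38.p6, 5′ to 3′, 250 bases before to 50 after the start) because the results below turn on these members. Windows of this kind were given for 63 of the 76 carriers (96 windows). Capitals mark TGATGNAA, a motif of the amino acid response element, or CACGTG, the E-box, searched on both strands. The Slc7a7 window lies at chr14:54417895-54418194 on the minus strand at an annotated start inside the gene, and holds 2 copies of TGATGNAA. It holds the most copies of the 5 Slc7a7 windows, of which 3 hold none. The Slc12a3 window lies at chr8:94328958-94329257 on the plus strand and holds neither motif, and the Slc12a7 window lies at chr13:73763410-73763709 on the plus strand, at an annotated start inside the gene, and holds CACGTG.
Slc7a7: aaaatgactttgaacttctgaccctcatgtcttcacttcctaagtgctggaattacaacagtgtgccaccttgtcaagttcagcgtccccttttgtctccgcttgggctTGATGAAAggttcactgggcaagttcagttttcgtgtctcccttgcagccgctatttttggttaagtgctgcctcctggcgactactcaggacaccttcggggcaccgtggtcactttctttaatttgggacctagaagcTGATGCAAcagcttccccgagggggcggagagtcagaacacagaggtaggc
Slc12a3: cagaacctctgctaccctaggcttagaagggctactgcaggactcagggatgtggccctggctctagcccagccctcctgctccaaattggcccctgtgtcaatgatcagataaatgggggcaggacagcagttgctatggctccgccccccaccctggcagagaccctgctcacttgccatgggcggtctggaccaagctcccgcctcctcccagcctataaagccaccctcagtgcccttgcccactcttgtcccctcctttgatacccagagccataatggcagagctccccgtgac
Slc12a7: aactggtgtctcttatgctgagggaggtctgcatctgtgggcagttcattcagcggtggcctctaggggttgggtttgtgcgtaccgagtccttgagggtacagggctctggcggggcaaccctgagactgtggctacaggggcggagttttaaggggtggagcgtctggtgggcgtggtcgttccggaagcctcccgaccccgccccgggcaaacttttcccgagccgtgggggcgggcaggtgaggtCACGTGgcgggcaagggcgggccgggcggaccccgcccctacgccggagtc
TGATGNAA occurred in 3.97% of all 32851 windows and in 5.21% of the carriers' windows (Slc7a7, Slc1a4, Slc50a1 and Slc23a3). CACGTG occurred in 7.15% of all windows and in 8.33% of the carriers' windows (Slc12a7, Slc29a1, Slc25a1, Slc25a15, Slc30a5, Slc20a1 and Slc27a1). A match is a run of letters and not a site shown to be bound.

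The 37 U74Av2 arrays held 9977 probe sets with median signals of 345.9 to 544 units, and the number of arrays limits the precision of every value below. Arrays of one group correlated at r of 0.91 to 0.96 across probe sets. The probe set of Ighm, the gene whose knock-in allele was deleted, that was brightest in Ctrl-Mhi read 79149 to 90252 in Cre-Mlo cells and 121708 to 140481 in Cre-Mhi cells, against 127391 to 147869 in Ctrl-Mhi cells. Whether its probes lie in the deleted part is not known, so it does not check the deletion itself. Signals of 5 B-lineage markers summed to between 27417 and 132014 on the 37 arrays. Signals of 6 erythroid markers summed to 69694 to 140498 in FxD and 150408 to 204465 in FxE, to 1896 to 12407 in FxE HA and 4293 to 10683 in FxE Ctrl, and to 740.5 to 1667 in the 6 groups of cultured IL-7 marrow. Signals of 13 myeloid markers summed to 37281 to 79598 in FxD and 68177 to 282338 in FxE, to 28549 to 138405 in FxE HA and 29931 to 131270 in FxE Ctrl, and to 1919 to 4572 elsewhere. The part of these other cells in the results on FxD, FxE, FxE HA and FxE Ctrl was not tested, and in sorted bulk samples fewer cells of a type and less RNA per cell cannot be told apart. The labels number replicates without naming animals, and p-values measure the spread between arrays.

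Signal of a probe set depends on its probes as well as on its transcript, so levels are set against each other within a gene only. In all 10 groups 41 of the 76 carriers reached 500 units, 28 did so in 2 to 9 groups, and 7 in a single group (Slc12a2, Slc19a1, Slc25a47, Slc39a3, Slc39a4, Slc5a6 and Slc6a2). The share of Slc probe sets at 500 units in a group (52.3% of 155) was close to that of all probe sets (59.2%). Just inside the limit lay Slc25a47 with a highest group mean of 509 in FxE HA, Slc39a4 with 511 in FxE Ctrl and Slc39a3 with 525 in FxE Ctrl. Just outside lay Slc25a3 with 488 in Cre-Mlo, Slc16a8 with 474 in FxD and Slc7a2 with 474 in GFPpos. By substrate the 76 comprised 13 members of the mitochondrial carrier family Slc25, 13 carriers of metal ions, 11 of amino acids and amines, 9 of nucleosides, vitamins, choline and related cofactors, 8 of bicarbonate, protons and monovalent ions, 7 of the nucleotide sugar family, 5 of sugars, 4 of organic ions, 2 of acids, 2 of phosphate, and 2 adaptor proteins named after a carrier. The highest means over the 10 groups were 8260 units for the probe set of Slc25a4, which exchanges ADP for ATP across the inner mitochondrial membrane, 6973 for Slc3a2, 5987 for the orphan mitochondrial carrier Slc25a53, 5399.8 for Slc50a1, a sugar efflux carrier, and 5213.5 for the scaffold Slc9a3r1. They were followed by Slc35b1, which carries ATP into the endoplasmic reticulum (5068), the peroxisomal cofactor carrier Slc25a17 (4242), the vesicular zinc carrier Slc30a3 (4063), the second ADP/ATP exchanger Slc25a5 (3772) and the mitochondrial glutathione carrier Slc25a39 (3554).

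The ratio of the highest to the lowest group mean had a median of 2.93 over the 76 carriers, exceeded 5 for 14 and stayed under 2 for 13. The steadiest were Slc39a7, which releases zinc from the endoplasmic reticulum, with a ratio of 1.35, Slc35b1 with 1.38 and Slc30a3 with 1.40. Slc7a7 varied most (36.5), followed by the nucleoside carrier Slc29a1 (15.2), the choline carrier Slc44a1 (13.9) and the sodium chloride carrier Slc12a3 (12.8). More carriers had their highest mean in FxE HA (18) than in any other group, and more had their lowest in FxD (15) and FxE (14). These counts set groups against each other whose RNA was prepared differently, and no test was made on them.

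A carrier was called when its adjusted p in limma, taken over all probe sets of the table, was under 0.05. In at least 1 of 8 comparisons 30 of the 76 were called, and 46 were called in none. The share of all probe sets called in 1 or more, or in several, of the comparisons was not worked out. Such counts therefore only describe the carriers. In Cre-Mlo against Ctrl-Mhi cells 4 carriers were higher and 5 lower (11.8% of 76), where 7.25% of the 138 Slc genes and 8.33% of all probe sets were called (4.23% higher, 4.1% lower). In Cre-Mlo against Cre-Mhi cells 8 were higher and 4 lower (15.8%), where 9.42% of Slc genes and 6.08% of probe sets were called (3.14% higher, 2.95% lower). B6-Mneg against Ctrl-Mhi gave 13 higher and 7 lower (26.3%), beside 17.4% of Slc genes and 14.2% of probe sets (6.91% higher, 7.3% lower). Among probe sets that themselves reached 500 units in a group, 13.1%, 9.88% and 20.8% were called in these 3 comparisons. Against probe sets of that level the carriers' share was lower in Cre-Mlo against Ctrl-Mhi and higher in the other 2 comparisons. The share of the 138 Slc genes lay below that of all probe sets in Cre-Mlo against Ctrl-Mhi and above it in the other 2.

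Few carriers were called in the other comparisons. FxD against FxE gave 3 higher (3.95%), beside 2.9% of Slc genes and 3% of probe sets (1.74% higher). GFPpos against GFPneg gave 1 higher and 1 lower (2.63%), beside 2.17% of Slc genes and 2.59% of probe sets (1.37% higher, 1.21% lower). FxE HA against FxE Ctrl gave 2 higher and 2 lower (5.26%), beside 2.9% of Slc genes and 3.37% of probe sets (1.18% higher, 2.19% lower). Cre-Mhi against Ctrl-Mhi gave 0 called carriers in limma (0.02% of probe sets and 0 of the 138 Slc genes called), with 4 at an unadjusted p under 0.05 (7.13% of probe sets) and 0 by the methods' t-test (0.0401% of probe sets). HEL 48h against BM 48h Ctrl also gave 0 in limma (0.23% of probe sets and 0 of the 138 Slc genes), with 9 at an unadjusted p under 0.05 (11.6% of probe sets), and 2 by the methods' t-test (0.794% of probe sets), of which 0 remained after Benjamini-Hochberg adjustment. Groups did not overlap for 20 carriers in Cre-Mlo against Ctrl-Mhi (26.3%, beside 16.6% of all probe sets and 25.2% of those at 500 units), for 17 in Cre-Mlo against Cre-Mhi (22.4%, beside 13.8% and 21.1%) and for 0 in Cre-Mhi against Ctrl-Mhi (beside 3.87% and 4.57%). Several of these comparisons share arrays (Ctrl-Mhi enters 3 and Cre-Mlo 2), so their lists are not independent of each other. The median log2 difference of the carriers stood furthest from that of all probe sets in FxD against FxE (-0.17, beside 0.04).

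**Figure D1:**
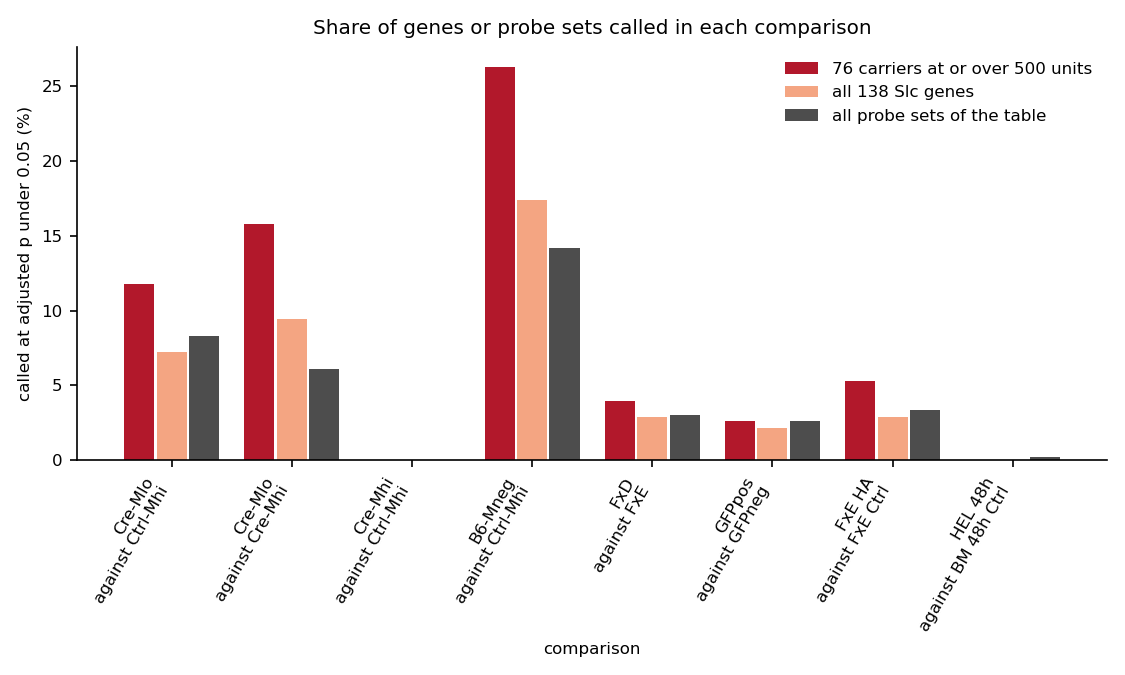
Share of features called at an adjusted p under 0.05 in limma (percent, y axis) in each of the 8 comparisons, for the 76 carriers, all 138 Slc genes and all probe sets. The carriers stand at 26.3% in B6-Mneg against Ctrl-Mhi, against 14.2% of all probe sets, and at 0 in Cre-Mhi against Ctrl-Mhi and in HEL 48h against BM 48h Ctrl.

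**Figure D2:**
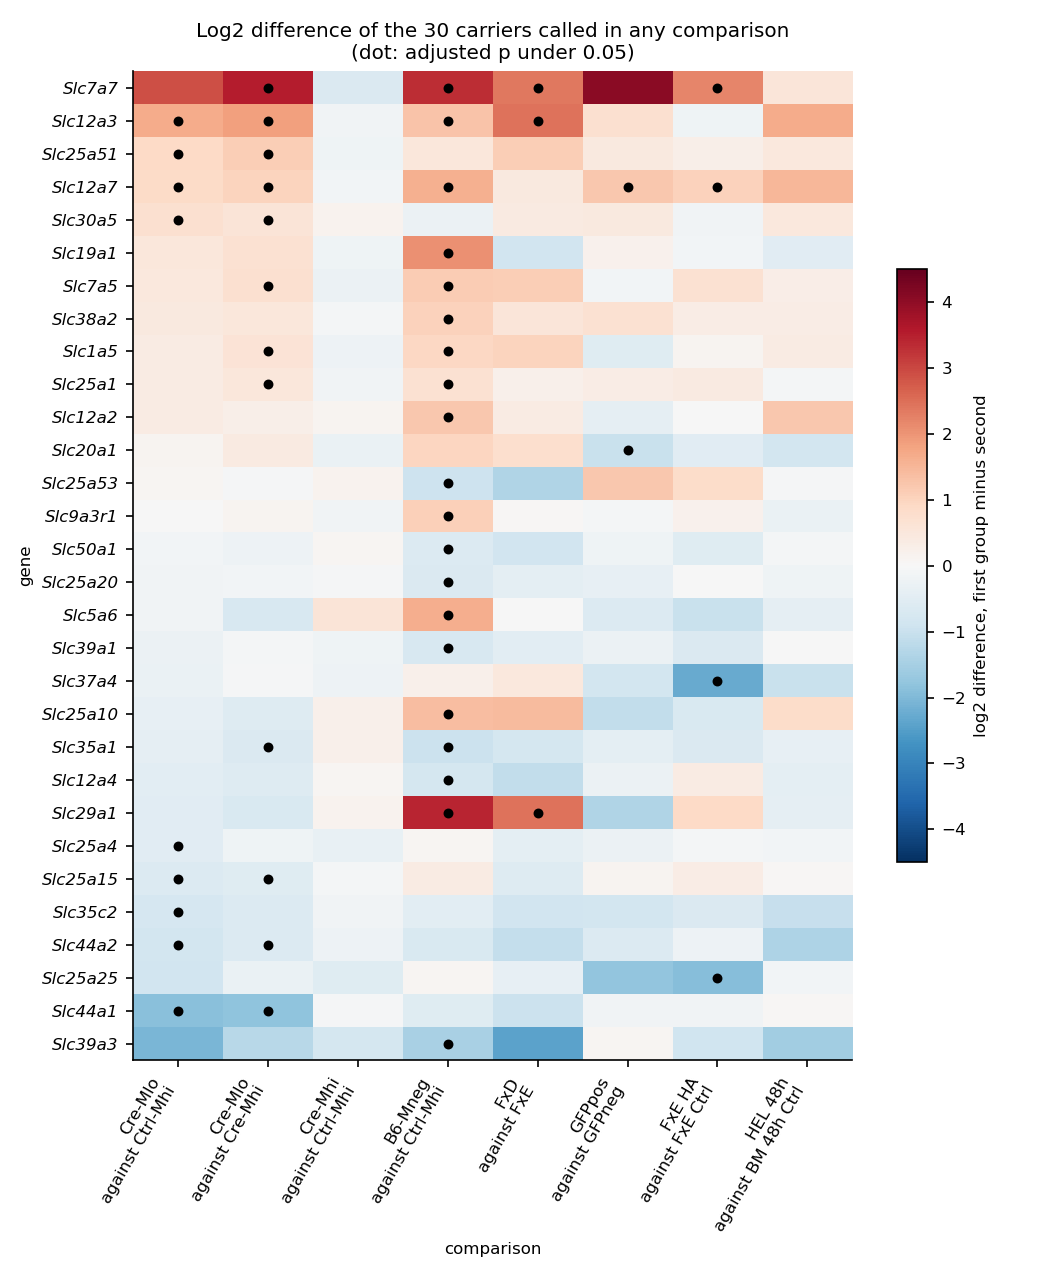
Log2 differences (colour, first-named group minus second) of the 30 carriers called in 1 or more of the 8 comparisons, sorted by Cre-Mlo against Ctrl-Mhi. A dot marks an adjusted p under 0.05, and Slc12a3, Slc12a7 and Slc7a7 carry dots in the most columns.

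Slc12a7, a potassium chloride cotransporter (KCC4) that lets cells shed salt and water, was called higher in 5 of the 8 comparisons, some of which share arrays. Cre-Mlo arrays read 921, 865, 890.2 and 1031 units, against 432, 461, 584 and 399 in Cre-Mhi and 473, 332, 642 and 667 in Ctrl-Mhi cells. All Cre-Mlo values lay above all values of both IgM-high groups (log2 difference 0.86, SE 0.22, adjusted p = 0.0332 against Ctrl-Mhi, and log2 difference 1.00, adjusted p = 0.0224 against Cre-Mhi). In GFPpos cells it read 1089.6, 988 and 859, against 472, 373 and 423 in GFPneg cells, again without overlap (log2 difference 1.21, SE 0.17, adjusted p = 0.0407). FxE HA cells gave a lowest value of 987, a median of 2500.4 and a highest value of 3186, against 1146, 1415, 478 and 587 in FxE Ctrl cells. The 2 groups overlapped, 48 h arrays were lower than 24 h arrays in both, and the carrier was called in the fit that takes hours as a factor (log2 difference 1.04, SE 0.17, adjusted p = 0.0091). This last call lies outside the naming rule, which asks for groups that do not overlap, and is given after its values were seen. B6-Mneg cells read 1435, 1578 and 1584, above every Ctrl-Mhi array (log2 difference 1.59, SE 0.27, adjusted p = 0.011). FxD cells, at 514, 482 and 561, overlapped FxE cells, at 422, 513 and 264 (log2 difference 0.43, adjusted p = 0.654). Without single arrays the call against Ctrl-Mhi held in 2 of 8 fits for Cre-Mlo and in 7 of 7 for B6-Mneg, and that of GFPpos against GFPneg in 0 of 6.

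Slc12a3, known in the kidney as the thiazide-sensitive sodium chloride cotransporter, read 2809, 2032, 2303 and 2852 in Cre-Mlo cells, against 645, 473, 849 and 872 in Cre-Mhi and 733, 809, 842 and 724 in Ctrl-Mhi cells. No Cre-Mlo array overlapped an IgM-high array (log2 difference 1.67, SE 0.20, adjusted p = 0.000475 against Ctrl-Mhi, and log2 difference 1.84, adjusted p = 0.000359 against Cre-Mhi). The call held without each array in turn in both comparisons. FxD cells read 2402, 1493 and 1799, against 407, 379.5 and 259 in FxE cells (log2 difference 2.44, SE 0.31, adjusted p = 0.0186), and B6-Mneg cells 1979, 1708 and 1976, above all Ctrl-Mhi arrays (log2 difference 1.28, SE 0.14, adjusted p = 0.00216). Herbimycin A groups gave no call. GFPpos arrays read 477, 1589 and 2085, overlapping 586, 816 and 751 in GFPneg (log2 difference 0.71, adjusted p = 0.559). FxE HA and FxE Ctrl arrays were all low, with a lowest value of 38.2, a median of 182 and a highest value of 350.3 in FxE HA, against 238, 213, 152 and 199 in FxE Ctrl (log2 difference -0.21, adjusted p = 0.905).

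The gene that follows Slc12a3 (chr8:94329109-94366222, plus strand of GRCm38.p6) on the chromosome is Herpud1, which encodes a membrane protein of the endoplasmic reticulum that is induced when unfolded proteins accumulate, and the gap is 20207 bases. Herpud1 averaged 10619 in Cre-Mlo and 3816 in Ctrl-Mhi cells (log2 difference 1.52, adjusted p = 0.00155), 13409 in FxD and 4894 in FxE (1.47, adjusted p = 0.0365), and 6199 in GFPpos and 2447 in GFPneg cells (1.35, adjusted p = 0.0407). It was not called in B6-Mneg against Ctrl-Mhi (0.67, adjusted p = 0.143) or in FxE HA against FxE Ctrl (0.62, adjusted p = 0.16). Nup93, whose annotated end lies 1009 bases before Slc12a3, was called in none of the 8 comparisons. Whether signal of the Slc12a3 probe set comes from transcripts that run between these genes was not tested.

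Slc7a7, the light chain that with Slc3a2 exchanges cationic for neutral amino acids and is prominent in macrophages, read 1295, 949.8, 642 and 922 in Cre-Mlo cells, against 67.3, 50.2, 357 and 32.9 in Cre-Mhi and 270.4, 52.5, 339.8 and 50.7 in Ctrl-Mhi cells. Each Cre-Mlo array exceeded each IgM-high array, but the IgM-high arrays spread widely, and the carrier was called against Cre-Mhi (log2 difference 3.54, SE 0.81, adjusted p = 0.0275) and not against Ctrl-Mhi (log2 difference 2.88, SE 0.81, adjusted p = 0.053). In FxE HA cells it had a lowest value of 2816, a median of 3792 and a highest value of 6868, against 1182, 1413, 548 and 724 in FxE Ctrl cells. No array overlapped, and the call held without each of the 10 arrays in turn (log2 difference 2.20, SE 0.35, adjusted p = 0.00966). FxD cells read 576, 807 and 449, against 155, 124 and 76.3 in FxE cells (log2 difference 2.39, SE 0.38, adjusted p = 0.0313). B6-Mneg cells read 1326, 1268 and 1124, above every Ctrl-Mhi array (log2 difference 3.31, SE 0.76, adjusted p = 0.0327). GFPpos cells gave 3154, 1472 and 1601, against 63.3, 74 and 336 in GFPneg cells, without overlap but not called (log2 difference 4.07, SE 0.73, adjusted p = 0.0556). The difference between the effects of Cre-Mlo and of GFPpos was -1.18 (adjusted p = 0.76) and that between the herbimycin A effects of GFPpos and FxE HA was 1.87 (adjusted p = 0.332). Without single arrays Slc7a7 stayed called in 1 of 8 fits of Cre-Mlo against Cre-Mhi and in 2 of 7 of B6-Mneg against Ctrl-Mhi. Mrpl52, the measured neighbour of Slc7a7, was called in no comparison. Among 13 myeloid markers, Itgam read 309.4 to 1133.4 in GFPpos and 103.3 to 181.5 in GFPneg cells, S100a8 read 249.2 to 1138.3 in GFPpos and 178.6 to 246.1 in GFPneg, and S100a9 read 114.1 to 177.1 in GFPpos and 58.5 to 99.5 in GFPneg, each higher without overlap. The other markers of the list overlapped between GFPpos and GFPneg. Of these, Camp, Ltf, Elane and Mmp9 had lower means in GFPpos, and the rest had higher means. The summed marker signal overlapped there, at 2011 to 4572 in GFPpos and 2582 to 2889 in GFPneg, and the part of myeloid cells in the Slc7a7 difference was not tested. Sums of the myeloid markers also overlapped between FxE HA and FxE Ctrl arrays, and in Cre-Mlo they were 2318 to 3276, against 1919 to 4245 in Cre-Mhi and 2679 to 3845 in Ctrl-Mhi.

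**Figure D3:**
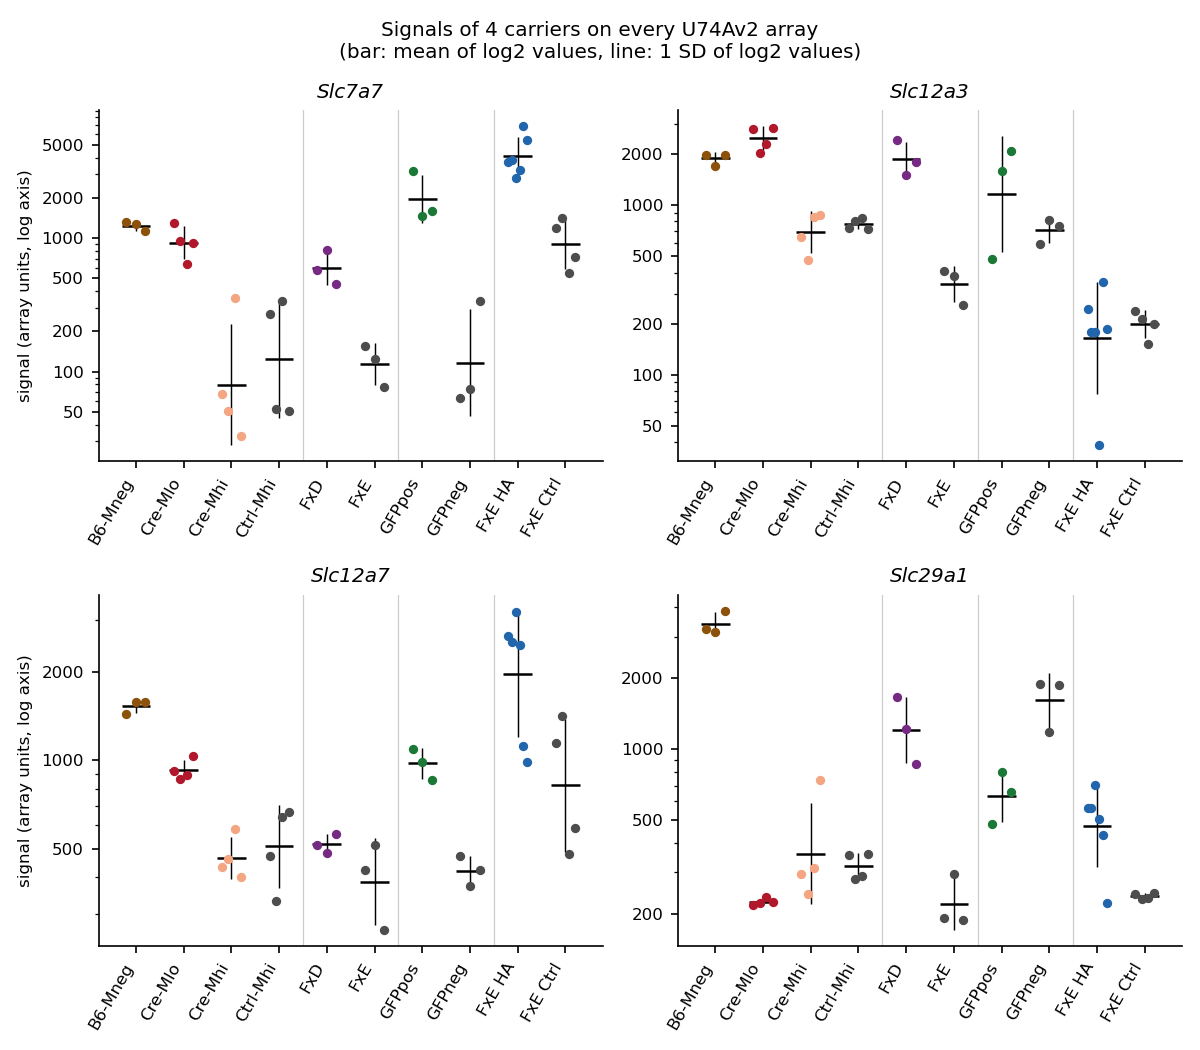
Signal (log axis) of Slc7a7, Slc12a3, Slc12a7 and Slc29a1 in the 10 U74Av2 groups. Points are arrays, bars the mean of log2 values and lines 1 SD of log2 values. Slc7a7, Slc12a3 and Slc12a7 are higher in Cre-Mlo than in Cre-Mhi and Ctrl-Mhi, whereas Slc29a1 is high in B6-Mneg, FxD and GFPneg.

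Slc29a1, the equilibrative nucleoside transporter that salvages nucleosides for DNA synthesis, had a different pattern. B6-Mneg cells read 3226, 3148 and 3864, against 355, 282, 290.3 and 359 in Ctrl-Mhi cells (log2 difference 3.41, SE 0.16, adjusted p = 9.47e-05). FxD cells read 1657, 1220.3 and 866, against 192, 296 and 189 in FxE cells (log2 difference 2.45, SE 0.35, adjusted p = 0.0237). Both IgM-negative populations were thus far above the group each was compared with, but high signal was not confined to IgM-negative cells. The IgM+ GFPneg cells, at 1885, 1180.2 and 1875, overlapped FxD cells. Cre-Mlo cells, at 218, 222, 236 and 225, lay instead below every Cre-Mhi array (296, 244, 313 and 739.6) and every Ctrl-Mhi array, and neither difference was called (adjusted p = 0.247 and 0.366). With herbimycin A its differences had opposite signs in the 2 systems. GFPpos cells read 479.8, 798 and 657, against 1885, 1180.2 and 1875 in GFPneg cells (log2 difference -1.35, adjusted p = 0.0769), while FxE HA cells had a lowest value of 223, a median of 533 and a highest value of 701, against 242, 231, 233 and 247 in FxE Ctrl cells (log2 difference 0.90, adjusted p = 0.11). Neither effect was called on its own, but their difference was the only one called among the 76 carriers (-2.25, SE 0.41, adjusted p = 0.0218), where 0.692% of all probe sets were called.

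In Cre-Mlo cells 2 of the 9 carriers of nucleosides, vitamins, choline and cofactors were called lower, and 7 were not called. The same 2 were called against Ctrl-Mhi and against Cre-Mhi. Of all probe sets 4.1% and 2.95% were called lower in these comparisons, and of those at 500 units 6.29% and 4.78%. Both belong to the 3 choline-like carriers measured, a group that was not one of the substrate classes. Slc44a1, a choline transporter of the plasma membrane and mitochondria, read 205, 90.1, 131 and 83 in Cre-Mlo cells, against 611, 299, 374 and 443 in Cre-Mhi and 624, 456, 302 and 419 in Ctrl-Mhi cells. Every Cre-Mlo array was lower than every other array (log2 difference -1.87, SE 0.33, adjusted p = 0.00532 against Ctrl-Mhi, and log2 difference -1.81, adjusted p = 0.00791 against Cre-Mhi), and both calls held without each array in turn. Its relative Slc44a2 read 1851, 2069, 1602 and 1852 in Cre-Mlo cells, against 3075, 2723, 2366 and 3072 in Cre-Mhi and 3183, 3196, 3935 and 2842 in Ctrl-Mhi cells. It too did not overlap (log2 difference -0.83, SE 0.14, adjusted p = 0.00457 against Ctrl-Mhi, and log2 difference -0.61, adjusted p = 0.0319 against Cre-Mhi). Without single arrays the call on Slc44a2 held in 8 of 8 fits against Ctrl-Mhi and in 2 of 8 against Cre-Mhi. The third member, Slc44a4, was not called against Ctrl-Mhi (log2 difference -0.18, adjusted p = 0.534). Outside the receptor deletion Slc44a1 was not called in GFPpos against GFPneg (log2 difference -0.16, adjusted p = 0.677) or in FxE HA against FxE Ctrl (log2 difference -0.18, adjusted p = 0.802). It was lower without overlap, and not called, in FxD (834, 796 and 1012) than in FxE cells (1900, 2239 and 1149). Slc44a2 was likewise lower without overlap and not called in FxD than in FxE, in B6-Mneg than in Ctrl-Mhi and in GFPpos than in GFPneg cells. Its FxE HA and FxE Ctrl arrays overlapped. The difference between the Cre-Mlo and the GFPpos effect on Slc44a1 was -1.71 (adjusted p = 0.0978).

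Among the 13 members of the Slc25 family 1 was called higher and 2 were called lower in Cre-Mlo than in Ctrl-Mhi cells. Of all probe sets 4.23% were called higher and 4.1% lower, and of those at 500 units 6.86% and 6.29%. Slc25a51, which brings NAD+ into mitochondria, read 3682, 4089.6, 4757 and 4250.1 in Cre-Mlo cells, against 1849.8, 2804, 1979.7 and 1435 in Cre-Mhi and 2234, 2121, 2483 and 2214 in Ctrl-Mhi cells. The groups were apart (log2 difference 0.89, SE 0.18, adjusted p = 0.0127 against Ctrl-Mhi, and log2 difference 1.09, adjusted p = 0.00508 against Cre-Mhi), and it was uncalled but also apart in FxD, at 4261, 4764 and 4345, against 2476, 1519 and 2277 in FxE (log2 difference 1.12, adjusted p = 0.113). Slc25a15, the ornithine carrier of the urea cycle, read 973, 984, 827 and 799.9 in Cre-Mlo cells, against 1405, 1360.1, 1216 and 1235 in Cre-Mhi and 1586, 1337, 1291 and 1329.9 in Ctrl-Mhi cells. Cre-Mlo values were lower without overlap, and the call held in 8 of 8 fits without single arrays against Ctrl-Mhi and in 4 of 8 against Cre-Mhi (log2 difference -0.63, SE 0.12, adjusted p = 0.00877 against Ctrl-Mhi, and log2 difference -0.54, adjusted p = 0.0246 against Cre-Mhi). Slc25a4 read 6421, 5889.7, 6269 and 6123 in Cre-Mlo cells, against 9512, 7507, 9579.8 and 8978 in Ctrl-Mhi cells (log2 difference -0.52, SE 0.13, adjusted p = 0.0335), a call that held in 1 of 8 fits without single arrays. Its Cre-Mhi arrays, at 8519, 6092.5, 6713 and 7251, overlapped the Cre-Mlo arrays, and it was not called between these groups. Slc25a1, which exports citrate for fatty acid synthesis, read 2828, 2738, 3019 and 2903 in Cre-Mlo and 1855, 1922, 2284 and 1972 in Cre-Mhi cells (log2 difference 0.52, adjusted p = 0.0155). Against Ctrl-Mhi it was not called (log2 difference 0.38, adjusted p = 0.054).

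Slc30a5, which loads zinc into the secretory pathway, read 2907, 3222, 2785 and 2561 in Cre-Mlo cells, against 1968, 2193, 1953 and 1640.2 in Cre-Mhi and 1948, 1427, 1928 and 1673 in Ctrl-Mhi cells (log2 difference 0.72, SE 0.14, adjusted p = 0.01 against Ctrl-Mhi, and log2 difference 0.57, adjusted p = 0.0418 against Cre-Mhi). Without single arrays the Slc30a5 call held in 8 of 8 fits against Ctrl-Mhi and in 0 of 8 against Cre-Mhi. A second probe set of the gene gave 0.64 (adjusted p = 0.0636) and 0.47 (adjusted p = 0.211). Slc30a5 was the only one of 13 metal ion carriers called in either comparison (beside 8.33% of all probe sets against Ctrl-Mhi and 6.08% against Cre-Mhi). Of the 13, 9 had a positive difference against Ctrl-Mhi (median 0.15). In the nucleotide sugar family Slc35c2, a Golgi protein linked to fucosylation, read 998, 952, 1015 and 823 in Cre-Mlo and 1722, 1201, 1793 and 1736 in Ctrl-Mhi cells (log2 difference -0.76, SE 0.16, adjusted p = 0.0151). The carrier of CMP-sialic acid, Slc35a1, read 684, 559, 588 and 787 in Cre-Mlo and 1134, 987, 828 and 1116 in Cre-Mhi cells (log2 difference -0.64, adjusted p = 0.032). Both were lower without overlap in those comparisons, and the call held without single arrays in 8 of 8 fits for Slc35c2 and in 2 of 8 for Slc35a1. Of the 7 members of this family 2 had a positive difference against each of the IgM-high groups, with medians of -0.34 against Ctrl-Mhi and -0.48 against Cre-Mhi. Cre-Mlo and Cre-Mhi arrays of the same number deviated together from their group means, and with the number as a block 2 of the 12 carriers called between them stayed called, Slc12a3 (adjusted p = 0.0241) and Slc44a1 (adjusted p = 0.0334).

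**Figure D4:**
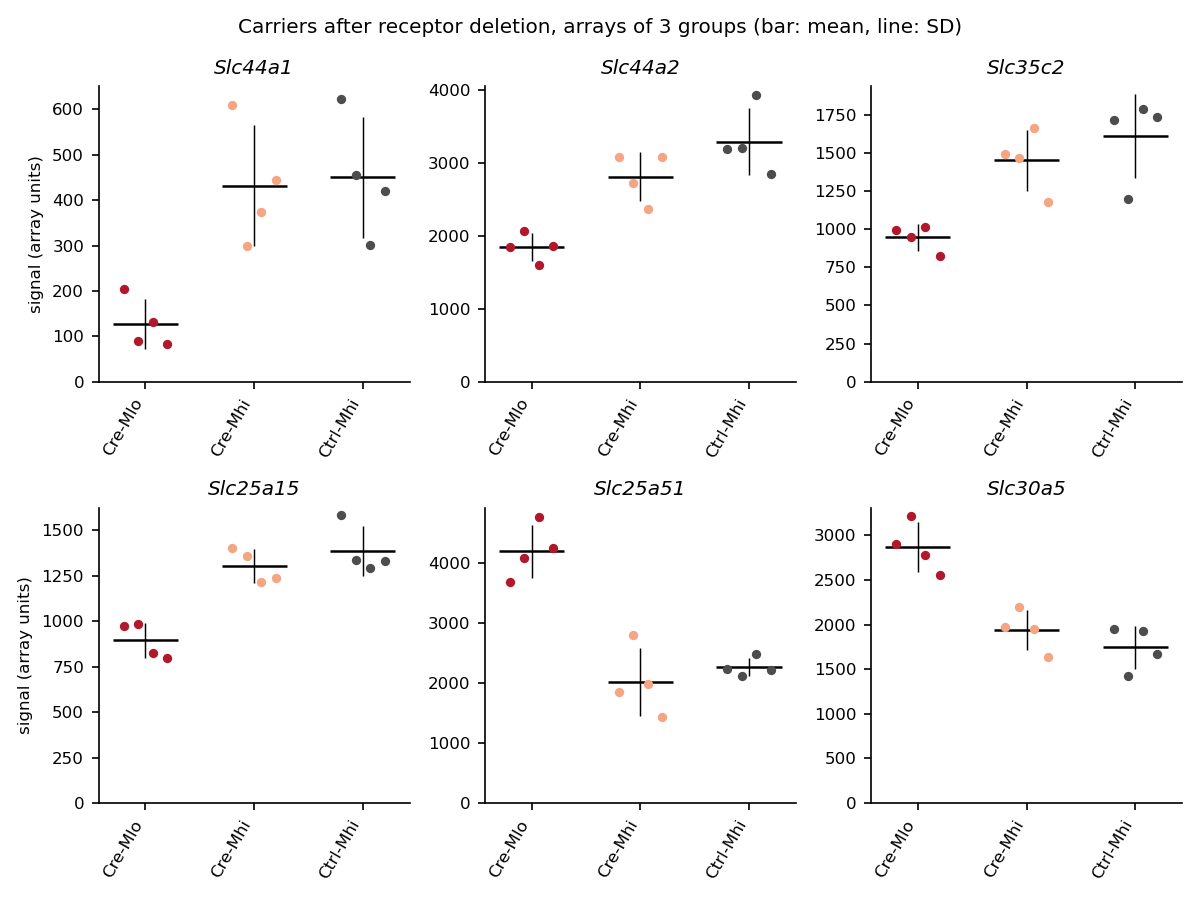
Signal (linear axis from 0) of Slc44a1, Slc44a2, Slc35c2, Slc25a15, Slc25a51 and Slc30a5 in Cre-Mlo, Cre-Mhi and Ctrl-Mhi cells, 4 arrays each. Points are arrays, bars means and lines SD. Cre-Mlo arrays are the lowest for the first 4 genes and the highest for Slc25a51 and Slc30a5.

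Of the 11 carriers of amino acids 0 were called in Cre-Mlo against Ctrl-Mhi cells (beside 8.33% of all probe sets and 13.1% of those at 500 units). Against Cre-Mhi cells 3 were called higher (beside 3.14% of all probe sets and 5.1% of those at 500 units). They were Slc7a7 and also Slc7a5, the light chain that imports leucine, and Slc1a5, the glutamine importer. With the replicate number as a block none of the 3 stayed called. Slc7a5 read 1849, 2685, 2085 and 1695 in Cre-Mlo cells, against 1259.6, 1396, 1249.5 and 1035 in Cre-Mhi and 1546, 1782, 1111 and 1559 in Ctrl-Mhi cells (log2 difference 0.74, adjusted p = 0.044 against Cre-Mhi, and log2 difference 0.47, adjusted p = 0.173 against Ctrl-Mhi). Cre-Mlo and Ctrl-Mhi arrays overlapped, and the call against Cre-Mhi held in 0 of 8 fits without single arrays. Slc1a5 read 4284, 4312, 4209.5 and 4766 in Cre-Mlo cells, against 3322, 2428, 2434 and 3456 in Cre-Mhi and 3356, 3099.8, 3528 and 3458 in Ctrl-Mhi cells, with no overlap (log2 difference 0.61, adjusted p = 0.0289 against Cre-Mhi, which held in 2 of 8 fits without single arrays, and log2 difference 0.39, adjusted p = 0.134 against Ctrl-Mhi). The heavy chain Slc3a2 was not called, at 2501, 3063, 3547 and 2897 in Cre-Mlo, 4057, 3139.7, 3575 and 3545 in Cre-Mhi and 4567, 4959, 2933 and 3106 in Ctrl-Mhi cells (log2 difference -0.35, adjusted p = 0.349 against Ctrl-Mhi).

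With herbimycin A the differences of Slc3a2 had opposite signs in the 2 systems. GFPpos cells read 2219, 1594 and 1888, against 4209, 3039.5 and 4629 in GFPneg cells, lower without overlap (log2 difference -1.05, SE 0.23, adjusted p = 0.0786). FxE HA cells had a lowest value of 15684, a median of 21252 and a highest value of 29305, against 17473, 17554, 9118 and 16917 in FxE Ctrl cells, where the groups overlapped (log2 difference 0.45, adjusted p = 0.367). The difference between these effects was -1.49 (SE 0.32, adjusted p = 0.0556) and was not called. In FxD cells it read 5284, 4405 and 4814, against 7758, 8201 and 7956 in FxE cells, lower without overlap and not called (log2 difference -0.73, adjusted p = 0.192). In FxE HA against FxE Ctrl cells 9 of 11 amino acid carriers had a positive difference (median 0.34), with Slc7a7 the only one called. There Slc7a5 had a lowest value of 3666, a median of 7523 and a highest value of 10787, against 5993, 5359, 2616 and 3023 in FxE Ctrl cells (log2 difference 0.69, adjusted p = 0.177), and Slc1a4, which carries alanine, serine and cysteine, a lowest value of 948, a median of 1783 and a highest value of 2309.5, against 1197, 1399, 1216 and 785 (log2 difference 0.37, adjusted p = 0.467).

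Of the 5 sugar carriers 0 were called in Cre-Mlo against Ctrl-Mhi cells. All 5 differences were negative there (median -0.29), in Cre-Mlo against Cre-Mhi cells (median -0.22), in GFPpos against GFPneg cells (median -0.80), in FxE HA against FxE Ctrl cells (median -0.52, with Slc37a4 called) and in HEL 48h against BM 48h Ctrl cells (median -0.59). Of the 5, 4 were positive in Cre-Mhi against Ctrl-Mhi (median 0.17), 2 in FxD against FxE (median -0.49) and 2 in B6-Mneg against Ctrl-Mhi (median -0.07, with Slc50a1 called lower). Over all probe sets the medians of the 8 comparisons lay between -0.13 and 0.07. Slc2a1, the widespread glucose transporter Glut1, read 113, 252 and 375 in GFPpos cells, against 669, 642 and 652 in GFPneg cells (log2 difference -1.57, SE 0.45, adjusted p = 0.134). FxD cells read 117, 78.5 and 209, against 674, 347 and 551 in FxE cells (log2 difference -2.02, SE 0.45, adjusted p = 0.0864). Both sets were apart and neither was called. In Cre-Mlo cells it scattered over 371, 86.8, 61.2 and 640.0, against 747, 495, 60.8 and 282 in Ctrl-Mhi cells, so a difference was not detectable (log2 difference -0.58, adjusted p = 0.818). Slc2a3, the high-affinity Glut3, read 405, 512 and 496 in GFPpos cells, against 684, 860.1 and 927 in GFPneg cells, lower without overlap and not called (log2 difference -0.80, adjusted p = 0.088). Its probe sets disagreed: the dimmer one was called lower in Cre-Mlo against Ctrl-Mhi (-1.90, adjusted p = 0.00494), in Cre-Mlo against Cre-Mhi (-1.32, adjusted p = 0.0416) and in GFPpos against GFPneg cells (-1.19, adjusted p = 0.042), where the brighter gave -0.57, -0.77 and -0.80 with adjusted p of 0.423, 0.307 and 0.088.

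**Figure D5:**
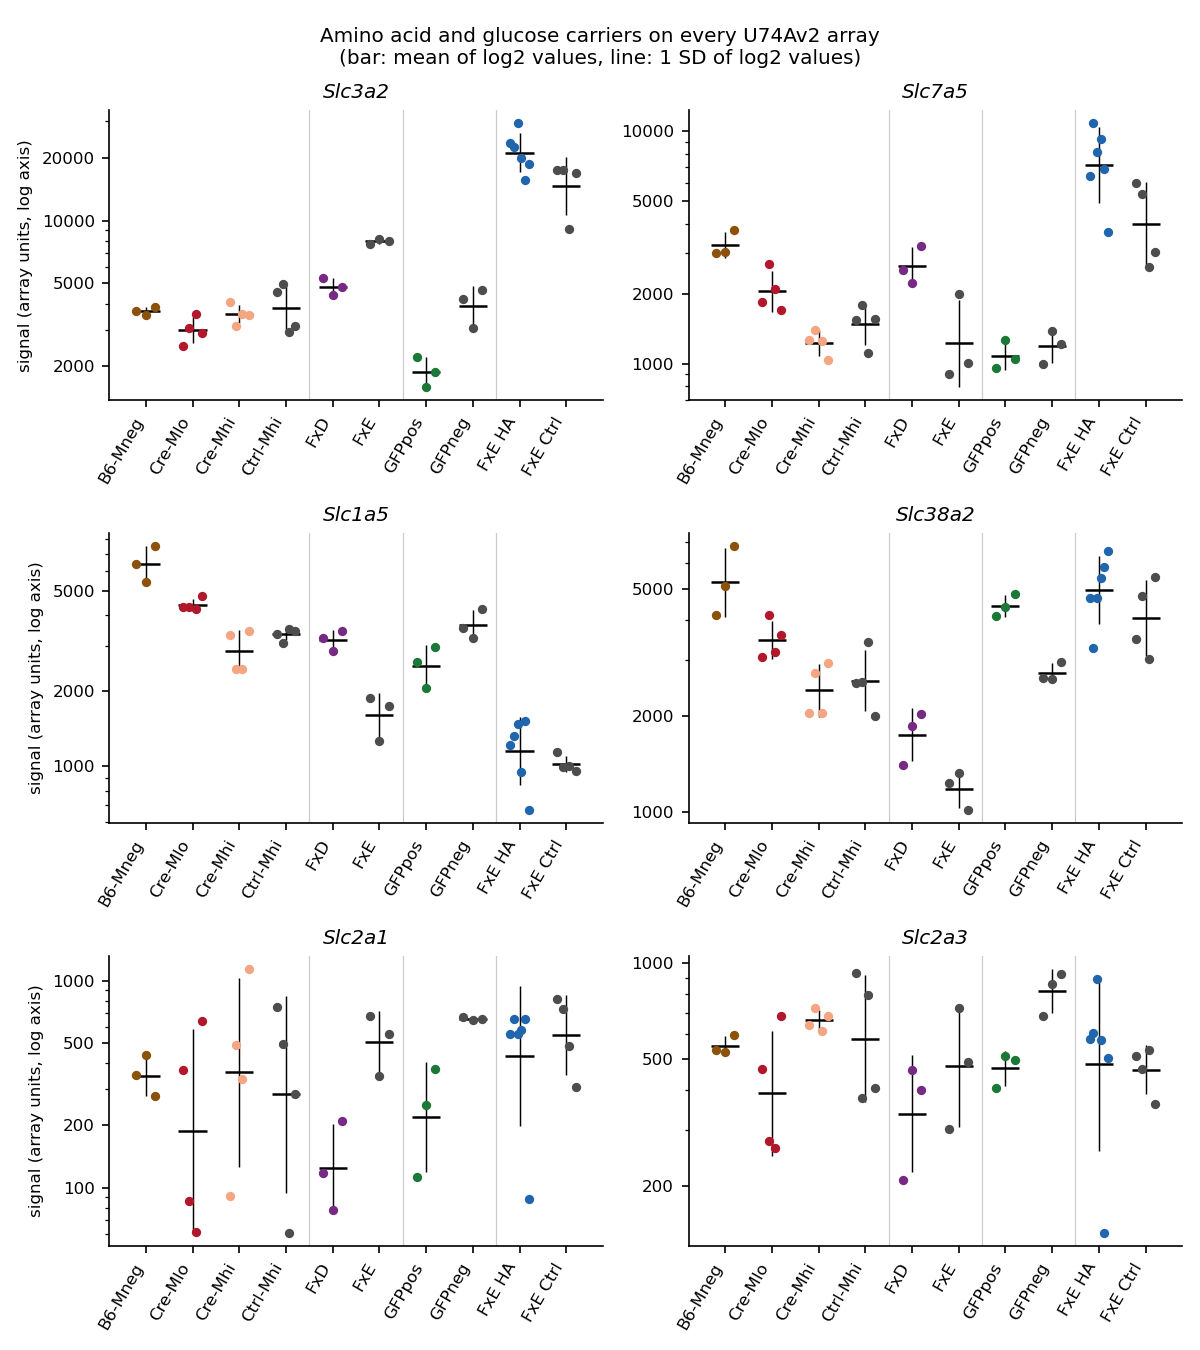
Signal (log axis) of the amino acid carriers Slc3a2, Slc7a5, Slc1a5 and Slc38a2 and the glucose carriers Slc2a1 and Slc2a3 in the 10 U74Av2 groups. Points are arrays, bars the mean of log2 values and lines 1 SD of log2 values. Slc3a2 is lower in GFPpos than in GFPneg, and Slc7a5, Slc1a5 and Slc38a2 are higher in B6-Mneg than in Ctrl-Mhi.

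B6-Mneg cells differed from Ctrl-Mhi cells in the largest number of carriers, and the median over all probe sets was itself shifted there (-0.13, against -0.02 after quantile normalization), so differences are to be read relative to that shift. Carriers of nucleosides, amino acids and vitamins were among the called rises. Slc7a5 read 3003, 3029.7 and 3756 in B6-Mneg cells, against 1546, 1782, 1111 and 1559 in Ctrl-Mhi cells (log2 difference 1.13, SE 0.20, adjusted p = 0.0136). Slc1a5 read 6356, 5390.1 and 7490.3 in B6-Mneg and 3356, 3099.8, 3528 and 3458 in Ctrl-Mhi cells (log2 difference 0.92, SE 0.16, adjusted p = 0.0121). Slc38a2, a small neutral amino acid carrier known to rise on amino acid shortage, read 4148, 5086 and 6775 in B6-Mneg and 2537, 2550.2, 3412 and 1998 in Ctrl-Mhi cells (log2 difference 1.02, SE 0.25, adjusted p = 0.0382). None of the 3 overlapped, whereas Slc3a2 did, at 3694, 3519.6 and 3872 in B6-Mneg cells (log2 difference -0.04, adjusted p = 0.933). Slc19a1, the reduced folate carrier, read 635, 733 and 803 in B6-Mneg and 154, 174, 168 and 199 in Ctrl-Mhi cells (log2 difference 2.06, SE 0.16, adjusted p = 0.000615). Slc19a1 became a member only because B6-Mneg reached 500 units, so the member rule itself favoured this rise. Slc5a6, which takes up biotin and pantothenate, read 370.1, 262 and 207 in B6-Mneg and 115, 86.8, 49.8 and 122 in Ctrl-Mhi cells (log2 difference 1.62, adjusted p = 0.0301). With Slc29a1 these made 3 called higher of the 9 carriers of nucleosides, vitamins, choline and cofactors, beside 6.91% of all probe sets and 10.8% of those at 500 units. The class as a whole was not higher: 4 of the 9 had a positive difference, and the median was -0.23.

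Ion and mitochondrial carriers were called in both directions between these groups. Besides Slc12a3 and Slc12a7, Slc12a2, the sodium potassium chloride cotransporter that loads chloride into cells, was higher at 442, 669.7 and 691 in B6-Mneg, against 208, 237, 322 and 251 in Ctrl-Mhi cells (log2 difference 1.23, adjusted p = 0.0163). Slc12a2 became a member only because B6-Mneg reached 500 units, so the member rule favoured this rise. Slc12a4, the potassium chloride cotransporter KCC1, was lower at 882, 807 and 1203 in B6-Mneg, against 1498, 1956, 1406 and 1824 in Ctrl-Mhi cells (log2 difference -0.80, adjusted p = 0.0468). The scaffold Slc9a3r1, which ties membrane proteins to the actin cytoskeleton, read 8522, 8646 and 9125 in B6-Mneg and 4409, 4702, 3762 and 3692 in Ctrl-Mhi cells (log2 difference 1.09, SE 0.15, adjusted p = 0.00504). Among mitochondrial carriers the dicarboxylate carrier Slc25a10 (1.39, adjusted p = 0.0382) and Slc25a1 (0.69, adjusted p = 0.0302) were higher, and Slc25a53 (-0.92, adjusted p = 0.0289) and the acylcarnitine carrier Slc25a20 (-0.65, adjusted p = 0.0388) were lower. Slc35a1 fell to 418, 487 and 431 in B6-Mneg, against 842, 839, 974 and 789 in Ctrl-Mhi cells (log2 difference -0.95, SE 0.14, adjusted p = 0.0073). The zinc importers Slc39a1 (-0.71, adjusted p = 0.0373) and Slc39a3 (-1.45, adjusted p = 0.0314) and the sugar carrier Slc50a1 (-0.60, adjusted p = 0.0388) were lower as well. Slc39a3 was dim, at 95.8, 153.5 and 64.8 in B6-Mneg and 304, 329.4, 264.3 and 195.4 in Ctrl-Mhi cells. All 20 called carriers had groups that did not overlap, as did 35 of the 76 (46.1%), where 29.1% of all probe sets and 41% of those at 500 units were apart. Without single arrays 8 to 13 carriers were called. Slc1a5, Slc38a2 and Slc25a1 were not followed one by one in these fits. Of those followed, Slc29a1, Slc19a1, Slc12a3, Slc12a7, Slc35a1 and Slc9a3r1 were called in all 7 such fits. Slc7a5 was called in 6, Slc12a2 in 5, Slc5a6 in 3, and Slc7a7 and Slc39a3 in 2. Slc12a4, Slc25a10, Slc25a53 and Slc39a1 were called in 1, and Slc25a20 and Slc50a1 in 0. Of the carriers called in all 7, Slc19a1 had entered the member set through B6-Mneg alone.

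In fresh marrow only Slc29a1, Slc12a3 and Slc7a7 were called between FxD and FxE, all higher in FxD, and 27 carriers (35.5%) were apart, where 20% of all probe sets and 26.6% of those at 500 units were. These 3 calls rest on every array: without FxD replicate 3 a single one, Slc29a1, was called, and without any of the other 5 arrays none was. The erythroid and myeloid sums given above were lower in FxD than in FxE for erythroid markers and overlapped for myeloid markers. The carrier best known from red cells, the anion exchanger Slc4a1, read 1233, 817 and 1512 in FxD and 1485, 2091 and 1205 in FxE cells, overlapping and not called (log2 difference -0.43, adjusted p = 0.69), and had its highest group means in these 2 groups. The iron carrier Slc11a2, which takes up ferrous iron, read 3727, 3292 and 2564 in FxD, against 1589.8, 1490.3 and 1589 in FxE cells, apart and not called (log2 difference 1.02, adjusted p = 0.107). The copper importer Slc31a1 read 2517, 5301 and 2242 in FxD and 6397, 4624 and 5728 in FxE cells, overlapping (log2 difference -0.83, adjusted p = 0.428).

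Under herbimycin A the phosphate carrier Slc20a1, also a receptor of gammaretroviruses, read 483, 571 and 547 in GFPpos cells, against 1128, 983 and 1062 in GFPneg cells (log2 difference -0.99, SE 0.14, adjusted p = 0.0424). It was the only carrier called lower there, in no case after an array was left out. Of the 76 carriers 26 (34.2%) were apart between GFPpos and GFPneg, where 29% of all probe sets and 41.2% of those at 500 units were. In FxE HA cells Slc37a4, which carries glucose 6-phosphate into the endoplasmic reticulum, had a lowest value of 83.1, a median of 114 and a highest value of 392, against 732, 804, 605 and 952 in FxE Ctrl cells (log2 difference -2.27, SE 0.47, adjusted p = 0.0319). Slc25a25, a calcium-regulated carrier of ATP and phosphate in mitochondria, had a lowest value of 165, a median of 691 and a highest value of 850.3, against 2245, 2553, 1936 and 1312 in FxE Ctrl cells (log2 difference -1.93, SE 0.41, adjusted p = 0.0365). Both were lower on every FxE HA array, and 6 of the 76 carriers (7.89%) were apart, where 5.84% of all probe sets and 9.28% of those at 500 units were. In GFPpos cells Slc25a25 read 177, 634 and 931, against 1582, 1696 and 1595 in GFPneg cells, also apart and not called (log2 difference -1.79, adjusted p = 0.192). Each of the calls on Slc37a4 and Slc25a25 held in 2 of 10 fits without single arrays.

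HEL 48h against BM 48h Ctrl cells gave 0 called carriers, on the U74A array, where 19 of 76 (25%) were apart, beside 20.5% of all probe sets and 28.5% of those at 500 units. Signals of 6 B-lineage markers summed to 70939 to 127393 in HEL 48h and 145951 to 161932 in BM 48h Ctrl cells, without overlap. Sums of the erythroid and myeloid markers overlapped. The part of cell make-up in these differences was not tested. Here too the median over all probe sets was shifted (-0.11, against -0.01 after quantile normalization). Slc12a3 read 3140.4, 2641 and 2837 in HEL 48h cells, against 752, 674 and 1450.4 in BM 48h Ctrl cells (log2 difference 1.67, SE 0.34, adjusted p = 0.146). Slc12a7 read 1199, 789 and 1155 in HEL 48h cells, against 482, 180.0 and 554 in BM 48h Ctrl cells (log2 difference 1.50, SE 0.48, adjusted p = 0.322). Both were apart. Slc7a7 overlapped, at 69.7, 571 and 549 in HEL 48h and 82.4, 194 and 434 in BM 48h Ctrl cells (log2 difference 0.55, adjusted p = 0.848). Slc44a2 read 1252, 2181 and 3735 in HEL 48h, against 5460.3, 6228 and 5482 in BM 48h Ctrl cells, lower without overlap and not called (log2 difference -1.40, adjusted p = 0.291).

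Several of these carriers are known to belong to the amino acid response, of which 12 of 18 listed genes were measured on U74Av2. In Cre-Mlo against Ctrl-Mhi cells 2 of the 12 were called (beside 8.33% of all probe sets), Herpud1 higher and the transcription factor Cebpb lower (-3.11, adjusted p = 0.00845). In B6-Mneg against Ctrl-Mhi cells 3 were called (beside 14.2% of all probe sets) and Psat1, an enzyme of serine synthesis (1.89, adjusted p = 0.00531), the mitochondrial folate enzyme Mthfd2 (1.75, adjusted p = 0.00601) and the growth factor Vegfa (2.08, adjusted p = 0.0151) were higher. Vegfa (1.71, adjusted p = 0.049) and Herpud1 were the 2 called in FxD against FxE (beside 3% of all probe sets), and Herpud1 the 1 called in GFPpos against GFPneg (beside 2.59%). In FxE HA against FxE Ctrl cells 2 were called (beside 3.37%), and Cebpb was higher (1.07, adjusted p = 0.0217) and Psat1 lower (-0.78, adjusted p = 0.0494). The median log2 difference of the list was -0.18, 0.15, 0.63, -0.33 and 0.56 in Cre-Mlo against Ctrl-Mhi, FxD against FxE, B6-Mneg against Ctrl-Mhi, GFPpos against GFPneg and FxE HA against FxE Ctrl, beside medians of all probe sets between -0.13 and 0.07.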

How the data were processed

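Per the submitters' notes and the study's methods, the authors read Affymetrix U74Av2 and U74A arrays in MAS 5.0, masked the U74Av2 table to probe sets shared with U74A, scaled every array to a common target and deposited the linear signal intensity. FxD and FxE RNA was amplified in 2 rounds, which can change the signal of individual probe sets relative to the other groups. Here signals under 20 were raised to 20 (none of the 2812 signals of the carriers lay that low) and log2 values were fitted in limma 3.58.1 (R 4.3.3) over all 9977 U74Av2 or 12588 U74A probe sets, after 66 control probe sets of U74A were left out. Cre-Mlo, Cre-Mhi and Ctrl-Mhi shared 1 fit, and each other comparison had its own, with hours (24 or 48, read from the array legends by replicate number) as a factor for FxE HA against FxE Ctrl. P-values were Benjamini-Hochberg adjusted over each table and called under 0.05. Of the U74Av2 probe sets 8724 matched 1 gene, 346 several and 907 none. The members and lists were chosen with earlier results of these data known. Named carriers are, per comparison, up to 10 called rises and 10 called falls whose groups did not overlap, the 10 highest signals, Slc3a2, Slc7a5, Slc2a1 and Slc2a3, and 3 either side of the 500 unit limit. Others were named after their values were seen. Alternatives were quantile normalization, a floor of 100, a filter at a mean of 200, replicate blocks, leaving out each array, fits on 2 groups only, and the methods' t-test. Arrays of the same number shared deviations between Cre-Mlo and Cre-Mhi (r of 0.177 to 0.474, 4 pairs) and between HEL 48h and BM 48h Ctrl (r of 0.111 to 0.239, 3 pairs), and this pairing comes from the data, not the labels. A list of aminoacyl-tRNA synthetases (2 of 20 measured) gave 0 calls in limma in each comparison, and of iron handling genes (9 of 14 measured) only Fech was called (-1.22 in B6-Mneg against Ctrl-Mhi, adjusted p = 0.0425). The HEL-Mlo arrays, on another scale, and HEL-Mhi entered no comparison. Promoter windows were matched with Python 3.11.15.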

Additional observations from a re-analysis of the deposited data

Results flagged for a closer look

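Over the 39 named carriers in the 5 groups with 4 or 6 arrays (195 cases), 10 held 1 array set apart from the rest by Dixon's test, and chance sets apart about 1 in 20 groups. Slc25a10 read 790.8 on Ctrl-Mhi replicate 2, above the other 3 arrays (323.1 to 385.9), and Slc25a15 read 1585.5 on Ctrl-Mhi replicate 1 (others 1290.7 to 1336.7). Slc35c2 read 1201.3 on Ctrl-Mhi replicate 2, below the others (1721.8 to 1792.6) and nearest to the Cre-Mlo arrays. In Cre-Mhi cells Slc29a1 read 739.6 on replicate 4 (others 244.1 to 313.2), Slc7a7 read 356.7 on replicate 3 (others 32.9 to 67.3) and Slc25a53 read 4353.6 on replicate 1 (others 6325.2 to 6402.3). Slc25a5 read 6122.7 on Cre-Mlo replicate 1 (others 4020.1 to 4374.4). Slc2a1 read 88.3 on FxE HA replicate 6, against 551.6 to 649.5 on the other 5. In FxE Ctrl cells Slc39a4 read 889.1 on replicate 1 (others 354.8 to 425) and Slc3a2 read 9117.6 on replicate 3 (others 16916.8 to 17553.8).

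The difference of GFPpos from GFPneg cells was unlike that of FxE HA from FxE Ctrl cells for 1 carrier. Neither difference was called on its own. GFPpos and GFPneg differ in drug and sort, and the 2 systems also differ in mice and culture, which cannot be told apart. For Slc29a1 the log2 difference of GFPpos minus GFPneg less that of FxE HA minus FxE Ctrl was -2.25 (limma, adjusted p = 0.0218), being lower in 3 of 3 GFPpos arrays than in any GFPneg array.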

How the results depend on the processing

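Counts of called carriers moved as follows. The share of all probe sets called was worked out for the methods' t-test but not for the other alternatives. By the t-test 2.86% of probe sets were called in Cre-Mlo against Ctrl-Mhi, 2.18% in Cre-Mlo against Cre-Mhi and 5.16% in FxD against FxE. It was 5.14% in B6-Mneg against Ctrl-Mhi, 1.83% in GFPpos against GFPneg and 2.2% in FxE HA against FxE Ctrl. Counts under the other alternatives therefore only describe the carriers. In Cre-Mlo against Ctrl-Mhi cells (9 called) a filter at a mean of 200 gave 16 and the methods' t-test 2, and single arrays left out gave 7 to 10. In Cre-Mlo against Cre-Mhi cells (12) the 2 groups fitted alone gave 6, the t-test 3 and single arrays left out 3 to 9: without Cre-Mlo replicates 1, 3 and 4 it was 5, 5 and 6, and without Cre-Mhi replicates 1, 2 and 4 it was 4, 3 and 7. In FxD against FxE (3) quantile normalization gave 5, the floor of 100 7, the filter 9, the t-test 15 (at its p threshold of 0.05, against 0.01 in the other comparisons, and 0 after adjustment) and arrays left out 0 to 1 (1 without FxD replicate 3, 0 without each other array). In B6-Mneg against Ctrl-Mhi (20) the t-test gave 8 and arrays left out 8 to 13: without B6-Mneg replicates 1 to 3 12, 9 and 8, and without Ctrl-Mhi replicates 1 to 4 11, 13, 12 and 11. In GFPpos against GFPneg (2) the floor gave 4, the filter 9, the t-test 1 and each array left out 0 to 0. In FxE HA against FxE Ctrl (4) the floor gave 8, the filter 9, no hours factor 2, 24 h alone 1, 48 h alone 0 and arrays left out 2 to 4 (2 without FxE HA or FxE Ctrl replicates 1, 2 or 3). HEL 48h against BM 48h Ctrl (0) gave 2 by the t-test, and 0 to 0 with arrays left out, as did Cre-Mhi against Ctrl-Mhi. The herbimycin A difference (1) gave 2 after quantile normalization. The cause of these changes was not tested.

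With the replicate number as a block 1 carrier was called in Cre-Mlo against Ctrl-Mhi (Slc12a3, adjusted p = 0.0374), 2 against Cre-Mhi, 2 in B6-Mneg against Ctrl-Mhi (Slc29a1 and Slc19a1) and 0 in FxD against FxE, GFPpos against GFPneg, FxE HA against FxE Ctrl, HEL 48h against BM 48h Ctrl and Cre-Mhi against Ctrl-Mhi. Only in Cre-Mlo against Cre-Mhi and in HEL 48h against BM 48h Ctrl did same-numbered arrays deviate together, and elsewhere the arrays share only a number. The chip lot block of HEL 48h was not run, there being 1 lot, and the scan day block gave 0.

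Of 46 called results on named carriers, none changed sign under any alternative, 17 stayed called without each array in turn, 44 after quantile normalization and 45 with the floor of 100. Uncalled differences near 0 changed sign. In B6-Mneg against Ctrl-Mhi, Slc2a1 ran from -0.44 (without Ctrl-Mhi replicate 3) to 0.77 with arrays left out and was -0.16 in the t-test, Slc2a3 ran from -0.28 to 0.15 (0.15 and 0.08 without Ctrl-Mhi replicates 1 and 3), and Slc3a2 ran from -0.16 to 0.092 (0.052 and 0.092 without replicates 1 and 2). In Cre-Mhi against Ctrl-Mhi, Slc2a1 ran from -0.38 to 1.02 (-0.19 without Cre-Mhi replicate 4, -0.38 without Ctrl-Mhi replicate 3), Slc2a3 from -0.013 (without Ctrl-Mhi replicate 2) to 0.42, and Slc3a2 from -0.21 to 0.041 (0.0013 and 0.041 without Ctrl-Mhi replicates 1 and 2). In FxE HA against FxE Ctrl, Slc2a3 (-0.07) ran from -0.26 to 0.34 (0.34 without FxE HA replicate 5, 0.13 without FxE Ctrl replicate 3), and was 0.28 with the replicate block, 0.064 with no hours factor, 0.41 at 24 h alone and 0.23 in the t-test. Groups of 3 or 4 arrays and probe sets near background limit what could be called.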

Other observations

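Of the 62 Slc genes under 500 units in every group, 7 were called in limma in 1 or more comparisons. The share of all probe sets called in 1 or more was not worked out. Highest group means were low: 109 for Slc1a1, 123 for Slc29a2, 125 for Slc22a6, 148 for Slc16a7, 219 for Slc39a8, 230 for Slc15a2 and 417 for Slc16a1. Array medians were 345.9 to 544, so most of these log2 differences set dim signals against each other. Slc16a1, which carries lactate, was higher in Cre-Mlo than in Cre-Mhi cells (3.12, adjusted p = 0.00626) and in B6-Mneg than in Ctrl-Mhi cells (1.60, adjusted p = 0.0279). Its relative Slc16a7 was lower in FxD than in FxE cells (-2.67, adjusted p = 0.0208). The metal importer Slc39a8 was lower in Cre-Mlo than in Ctrl-Mhi cells (-1.12, adjusted p = 0.0319), and the glutamate carrier Slc1a1 was lower in GFPpos than in GFPneg cells (-1.85, adjusted p = 0.0482). B6-Mneg cells were lower than Ctrl-Mhi cells in the peptide carrier Slc15a2 (-1.54, adjusted p = 0.0335), the organic anion carrier Slc22a6 (-1.13, adjusted p = 0.0401) and the second equilibrative nucleoside carrier Slc29a2 (-1.23, adjusted p = 0.0243). A second probe set of Slc11a2 was called higher in B6-Mneg than in Ctrl-Mhi cells (1.26, adjusted p = 0.00896), where the one described above was not (0.63, adjusted p = 0.0518).

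Of 36 listed pumps, ion channels and ABC transporters 24 were measured. In Cre-Mlo against Ctrl-Mhi cells 4 of the 24 were called (beside 8.33% of all probe sets): the sodium pump subunit Atp1b3 (0.72, adjusted p = 0.00369) and the export pump Abcc1 (1.92, adjusted p = 0.01) were higher, and the calcium pump Atp2a3 (-1.26, adjusted p = 2.21e-04) and the calcium-activated potassium channel Kcnn4 (-2.35, adjusted p = 0.00105) were lower. Atp2a3 was also lower in FxE HA than in FxE Ctrl cells (-1.22, adjusted p = 0.0161), where Abcb4 (1.13, adjusted p = 0.0245) and Clic4 (1.11, adjusted p = 0.0274) were higher (beside 3.37% of all probe sets). In B6-Mneg against Ctrl-Mhi cells 4 were called (beside 14.2%), Kcnn4 (1.52, adjusted p = 0.00605) and Atp1b3 (1.39, adjusted p = 0.00141) higher, and the sodium pump subunit Atp1b2 (-1.70, adjusted p = 0.0145) and Atp2a3 (-0.76, adjusted p = 0.0473) lower. In GFPpos against GFPneg cells Abcc5 alone was called (0.84, adjusted p = 0.0428, beside 2.59%).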
